A study of Danio rerio with 6 samples.

Results

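The 200 transcripts described here rose most between 24 and 96 hours post fertilization (hpf) from a measurable level in the zebrafish embryo. They were chosen from 58002 identifiers. An identifier was eligible when it had at least 0.1 FPKM (sequenced fragments divided by transcript length in kilobases and by the library's mapped fragments) in all 3 libraries of 24 hpf, which left 30042. For each of these the lowest FPKM of the 3 libraries of 96 hpf plus 1 was divided by the highest FPKM of the 3 libraries of 24 hpf plus 1, and the 200 with the highest log2 ratio were taken. The rule used all 6 libraries and the contrast between the stages, so the size of that rise is given as a description and without a test.

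RNA was sequenced from pools of 50 to 60 whole embryos (F1) of wild-type AB zebrafish, 1 library for each of 3 parental groups at 24 and at 96 hpf. The parents (F0), 3 months old, were kept for more than 21 days in normal water (control), in 0.078 µM copper (5 µg/L) or in 0.156 µM copper (10 µg/L), and all embryos were raised in water without added copper. The pooled embryos had been selected for their phenotype, per the design text, and the effects of selection and of parental exposure cannot be told apart. A group at a stage has 1 library, although the design text speaks of 3 repetitions, and no source used here says whether these were pooled. In whole embryos, a rise in the number of cells of a type and a rise in RNA per cell cannot be told apart.

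Between these stages the zebrafish embryo completes the main steps of organ formation, hatches and becomes a swimming larva. Tissues such as the eye, liver, pancreas, gut and skeletal muscle turn from growth toward their differentiated functions in this period. Genes of such functions are known to be transcribed weakly or in few cells at first and strongly afterwards. Which genes the 200 transcripts belong to is not known here: all 200 carry Ensembl transcript IDs, 0 of the 200 were found in the gene tables used, and no deposited file gives the gene of a transcript. No role, sequence or tissue is therefore given to any of them, and whether some are transcripts of 1 gene that share fragments cannot be said. Only 4 are named by ID, and the others are given by their rank in the rule.

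The median level of the 200 transcripts was 0.925 FPKM in the control library of 24 hpf, 0.848 FPKM with parents at 0.078 µM and 0.762 FPKM with parents at 0.156 µM. At 96 hpf the medians were 39.9, 39.3 and 41.1 FPKM in the same order. Each of the 200 was higher in every library of 96 hpf than in any library of 24 hpf, as the rule requires. Their median place among all identifiers, counted from the most abundant, went from 22517 to 1488 in control, from 23188 to 1536 at 0.078 µM and from 24009 to 1461 at 0.156 µM. At 96 hpf 74 to 79 of the 200 were among the 1000 most abundant identifiers of a library, against 1 or 2 at 24 hpf.

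**Figure D1:**
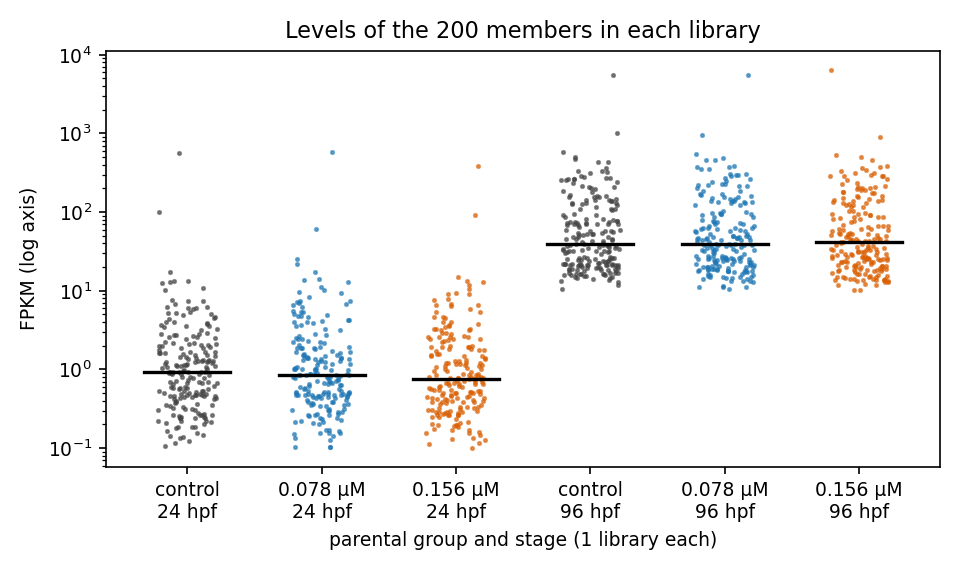
FPKM of each of the 200 transcripts (points, log axis) in the 6 libraries, with 3 parental groups at each stage, and black bars for the medians. The medians lie between 0.762 and 0.925 FPKM at 24 hpf and between 39.3 and 41.1 FPKM at 96 hpf, and 1 transcript stands far above the others in every library.

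Together the 200 transcripts held 0.185% of all FPKM in the control library of 24 hpf, 0.191% at 0.078 µM and 0.149% at 0.156 µM. At 96 hpf they held 4.90%, 4.74% and 4.85%. The share thus grew 26.5 times in control, 24.8 times at 0.078 µM and 32.5 times at 0.156 µM. Without the most abundant of the 200, the share grew 44.1, 41.7 and 44.9 times, so that this 1 transcript sets the size of the factors and most of the difference at 0.156 µM. That transcript made up 23.5% to 27.1% of their summed FPKM at 96 hpf and 47.2% to 54.8% at 24 hpf.

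The name of a low starting level held for most of the 200 but not for all. Across the libraries of 24 hpf, 95 stayed below 1 FPKM, 171 below 5 FPKM and 190 below 10 FPKM. A pair, those of rank 172 and 195, reached 50 FPKM or more at 24 hpf. The transcript of rank 172 had, at 24 hpf, 562.9 FPKM in control offspring and 582.3 and 389.7 FPKM with parents at 0.078 and 0.156 µM. At 96 hpf it had 5490, 5538 and 6469 FPKM, which made it the most abundant of the 200 at both stages. The transcript of rank 195 went from 101, 61.5 and 91.1 FPKM to 1023, 960 and 900.1 FPKM. Neither starts from a low level, and both were chosen because the rule measures a ratio.

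At 96 hpf all 200 exceeded 10 FPKM in every library. The lowest value of the 3 libraries was at or above 50 FPKM for 80 transcripts, at or above 100 FPKM for 48 and at or above 500 FPKM for 3.

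Of the eligible identifiers 2865, or 9.54%, were at least 2-fold higher at 96 hpf by the rule's own ratio, and 750, or 2.50%, at least 4-fold. Among the 200 the ratio was at least 10-fold for 165, 32-fold for 38 and 100-fold for 6. These ratios carry 1 FPKM in numerator and denominator and so understate the change of transcripts that start below 1 FPKM. They also take the worst pair of libraries. Within each parental group, FPKM at 96 hpf was divided by that at 24 hpf without the added 1. This ratio had a median of 42.0 in control, 45.3 at 0.078 µM and 50.0 at 0.156 µM, and reached 1176 in control. With the added 1, the median log2 change within a group was 4.15, 4.12 and 4.12 in the same order.

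The highest value belonged to ENSDART00000082250. Its level at 24 hpf was 0.918 FPKM in control offspring and 1.08 and 1.14 FPKM with parents at 0.078 and 0.156 µM, followed by 509.5, 543.5 and 507.1 FPKM at 96 hpf. The rule's ratio was 237-fold, and the parental groups lay close together at either stage. The next was ENSDART00000063125, with 0.615, 1.01 and 0.395 FPKM at 24 hpf and 583.9, 491.7 and 384.3 FPKM at 96 hpf. Its ratio was 191-fold, and control was the highest library at 96 hpf but not at 24 hpf.

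The transcript of rank 3 had 0.350, 0.568 and 1.14 FPKM at 24 hpf and 365.7, 302.1 and 297.6 FPKM at 96 hpf. Its libraries are ordered in opposite ways at the stages, lowest in control at 24 hpf and highest in control at 96 hpf. Rank 50 lay at 26.0-fold, with at most 0.697 FPKM at 24 hpf and at least 43.2 FPKM at 96 hpf. Rank 100 lay at 14.6-fold, from at most 1.32 FPKM to at least 32.8 FPKM.

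Around the limit the values ran on without a step. The ratio was 8.72-fold at rank 199 and 8.71-fold at rank 200, the last transcript inside, and 8.68-fold and 8.65-fold at ranks 201 and 202, the first outside. The transcript of rank 200 went from 0.901, 0.649 and 0.632 FPKM to 17.0, 18.1 and 15.6 FPKM. Rank 202 went from between 13.5 and 17.7 FPKM at 24 hpf to between 160.8 and 186.1 FPKM at 96 hpf, so similar ratios joined very different levels. Rank 400 still had a ratio of 5.64-fold.

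**Figure D2:**
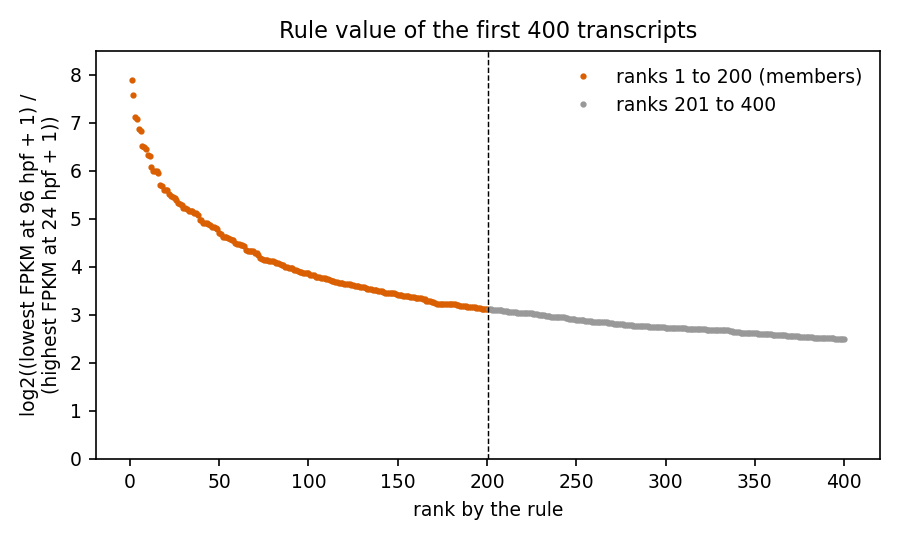
The log2 ratio of the rule (lowest library of 96 hpf over highest library of 24 hpf, each plus 1 FPKM) against rank for the first 400 eligible transcripts, with the dashed line between ranks 200 and 201. The curve falls steeply over the first 50 ranks, from 7.89 to 4.70, and crosses the limit near 3.12 without a gap.

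The rise was read in libraries that had no part in the choice by leaving out each parental group in turn. The same rule was applied to the 4 libraries of 2 parental groups, and the 200 transcripts so chosen were looked up in the 2 libraries of the third group. With control held out, 200 of 200 were at least 2-fold higher at 96 hpf in control, against 14.1% of the 31568 identifiers eligible in the choosing groups. With 0.078 µM held out, 200 of 200 were at least 2-fold higher in that group, against 13.7% of 31417. With 0.156 µM held out, the number was again 200 of 200, against 14.7% of 31510. There is 1 library per group and stage, so no replicate error or test stands behind these counts.

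The size of the rise in the held-out group was close to that in the choosing groups. The median log2 change of the chosen transcripts was 4.25 in held-out control, 4.22 in held-out 0.078 µM and 4.20 in held-out 0.156 µM. In the groups that chose them the medians of the mean change were 4.21, 4.21 and 4.25. At least 4-fold higher in the held-out group were 199, 200 and 200, against 3.76%, 3.7% and 4.09% of the eligible identifiers. At least 8-fold higher in the held-out group were 196, 200 and 194 of the 200, against 1.03%, 1.11% and 1.17% of the eligible identifiers. All 3 medians in the held-out groups stood more than 4 log2 units above the median of the eligible identifiers, which was 0.00, -0.01 and 0.00.

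The lowest change in a held-out group was that of 1 transcript chosen from the copper groups. There it rose from 1.34 to 44.0 FPKM at 0.078 µM and from 1.20 to 23.0 FPKM at 0.156 µM. In control it stood at 15 FPKM at 24 hpf and 31.5 FPKM at 96 hpf, a log2 change of 1.02. It is not among the 200 of the full rule, since its control level at 24 hpf was already high. In held-out 0.156 µM the lowest changes were 2.20 and 2.57. The transcript at 2.57 went from 1.83 to 15.8 FPKM there. In the choosing groups it went from 1.43 to 41.3 FPKM in control and from 2.11 to 50.1 FPKM at 0.078 µM. The 200 chosen without control shared 183 transcripts with the full list, those chosen without 0.078 µM shared 185, and those chosen without 0.156 µM shared 176.

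**Figure D3:**
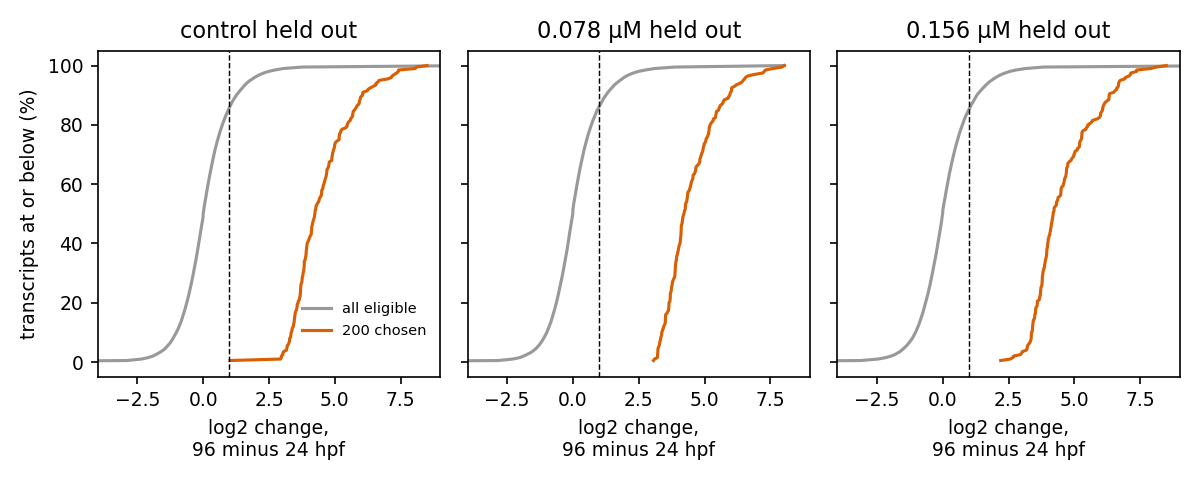
Cumulative share of transcripts (%) by their log2 change from 24 to 96 hpf in a parental group left out of the choice, for the 200 chosen from the other groups (orange) and for all eligible identifiers (grey), with a dashed line at a 2-fold rise. All 200 chosen transcripts lie right of the line in each panel, against 14.1%, 13.7% and 14.7% of the eligible identifiers.

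On the log2(FPKM + 1) scale, the rise of the 200 differed little between parental groups for most and by much for a few. The added 1 compresses differences at 24 hpf, where 95 of the 200 stayed below 1 FPKM. Small differences here therefore do not mean that ratios without the added 1 were as close. The difference between the largest and the smallest of the 3 log2 changes had a median of 0.36. It stayed below 0.5 for 137 transcripts and reached 1 or more for 16. The largest change of the 3 fell in control for 77 transcripts, in 0.078 µM for 45 and in 0.156 µM for 78. The shares over all eligible identifiers were not computed, so these counts are not read as a trait of the 200. The rule takes the worst pair of libraries, so the spread between libraries is not independent of the choice.

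Parental copper was then examined within each stage. The rule did not rank on this contrast, but it used the lowest library of the later stage and the highest of the earlier stage. Differences between parental groups within a stage, here and below, are therefore not independent of the choice. With 1 library per group there is no test within a stage, and both doses share the control library. At 24 hpf, 105 of the 200 reached 1 FPKM in at least 1 library. The remaining 95 cannot be 2-fold apart on the log2(FPKM + 1) scale, so these counts are low by construction.

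With parents at 0.078 µM, 1 of the 200 exceeded control by at least 2-fold at 24 hpf and 1 was as far below it, against 2.26% and 2.39% of the 24537 transcripts with at least 1 FPKM in 1 library. At 0.156 µM, 2 exceeded control and 4 fell below it by that much, against 3.02% and 2.42%. Between the doses 1 was higher and 5 lower at 0.156 µM, against 2.97% and 2.32%. The median log2 difference of the 200 from control was -0.01 at 0.078 µM and -0.05 at 0.156 µM, where the median of all transcripts was 0.01 at either dose. Over the 105 that reached 1 FPKM, the filter that all transcripts here passed, the 4 below control at 0.156 µM are 3.81% and the 5 below 0.078 µM are 4.76%. The other counts are 0.952% to 1.90% of the 105. With so few transcripts and single libraries, none of these shares is read as a difference of the 200.

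At 96 hpf all 200 reached 1 FPKM. With parents at 0.078 µM, 1 exceeded control by at least 2-fold and 1 was as far below it, against 1.86% and 2.17% of 27496 transcripts. At 0.156 µM, 1 exceeded control and 0 fell below it by that much, against 2.25% and 2.41%. Between the doses 1 was higher and 0 lower at 0.156 µM, against 2.25% and 1.95%. The median differences from control were -0.03 at either dose, and those of all transcripts were 0.00 and 0.01. Within 1.5-fold of control were 195 of the 200 at 0.078 µM and 189 at 0.156 µM, which is 97.5% and 94.5%, against 91.1% and 89.2% of all transcripts. The 200 exceeded 10 FPKM in every library of 96 hpf, while all transcripts needed 1 FPKM in 1 library. The shares in this paragraph are therefore not matched on level. Beside other transcripts with medians between 10.4 and 5538 FPKM, the median spread of the 200 between the 3 libraries was the larger, 0.20 against 0.16.

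**Figure D4:**
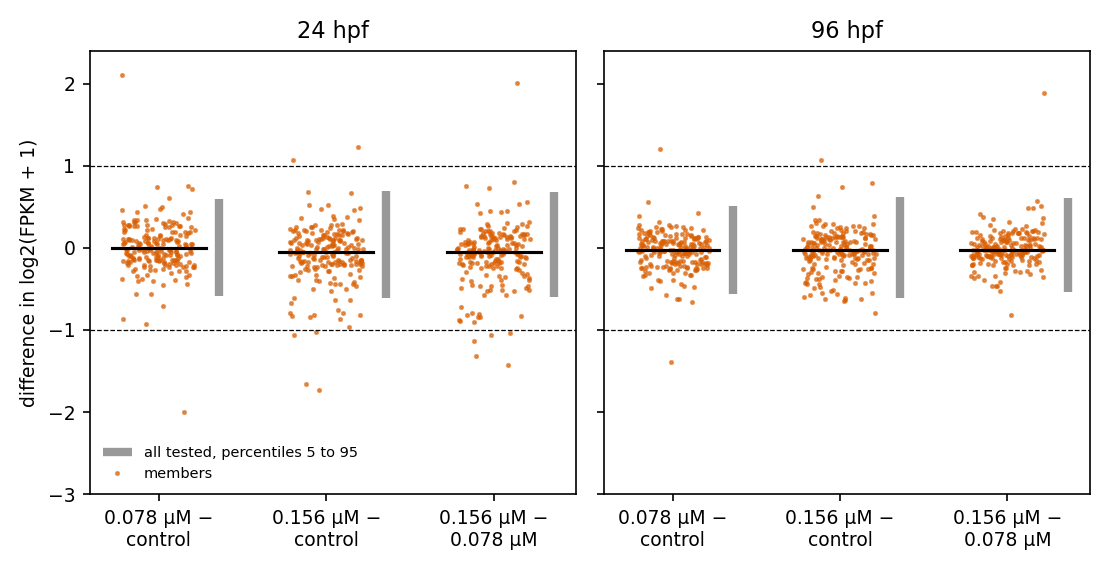
Differences in log2(FPKM + 1) between parental groups for each of the 200 transcripts (orange points, black bars at the medians) at 24 and 96 hpf, beside percentiles 5 to 95 of all transcripts tested (grey bars), with dashed lines at 2-fold. Most points lie within 2-fold, and at 24 hpf the points of 0.156 µM trail below 0. There 4 of 200 are at least 2-fold below control and 2 as far above it, against 2.42% and 3.02% of all transcripts. With single libraries these shares are not read as a difference of the 200.

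A fit over both stages asked whether any of the 200 differed between copper at either dose and control. It used limma on log2(FPKM + 1) of all 6 libraries, with the stage as a block, across 30156 transcripts with at least 1 FPKM in 1 library. All 200 passed that filter, which their level at 96 hpf ensures. Doses and stages stand in for replicates, so its p-values say nothing of the spread between clutches. In limma, 0 of the 200 had an adjusted p of 0.05 or less (Benjamini-Hochberg over all transcripts), against 0.00332% of all transcripts, which is 1 transcript. The lowest adjusted p among the 200 was 0.951 in this limma fit. At an unadjusted p below 0.05, 4 were higher and 11 lower with copper, against 2.6% and 2.24% of all transcripts. Without the control library of 24 hpf, 18 were lower, against 2.97% of all transcripts, and without that of 96 hpf 5 were, against 2.95%. Without the 0.156 µM library of 24 hpf 11 were higher, against 2.56%. Without the library of 0.078 µM or that of 0.156 µM at 96 hpf 2 were higher, against 2.51% and 2.39%.

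A second limma fit asked whether the rise between the stages itself differed between control and the copper groups, with the product of stage and copper as the term. Of the 200, 0 passed an adjusted p of 0.05, against 0.0398% of all transcripts, which is 12. The lowest adjusted p was 0.464 (limma). At an unadjusted p below 0.05, 6 of the 200 rose more and 9 rose less with copper, against 3.25% and 3.40% of all transcripts. The rule ranked on this same rise in the same libraries and took the worst pair. The counts of this fit, the 0 calls included, are therefore not independent of the choice. It left 2 residual degrees of freedom, with doses standing in for replicates.

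ENSDART00000104074 had the most negative copper change of the 200 over both stages. At 24 hpf its level was 3.91 FPKM in control offspring and 0.228 and 0.480 FPKM with parents at 0.078 and 0.156 µM, and at 96 hpf 144.7, 104.5 and 98.5 FPKM. Both copper libraries were below control at each stage, and the gap was wider at 24 hpf. The log2 change in the fit was -1.19 (SE 0.31), with an adjusted p of 0.951 (limma). Without the control library of 24 hpf it was -0.51, and without that of 96 hpf -1.86.

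ENSDART00000167528 followed, with 1.5, 0.373 and 0.839 FPKM at 24 hpf and 126.8, 47.8 and 178.8 FPKM at 96 hpf. Here 0.078 µM was the lowest library at both stages, while 0.156 µM was below control at 24 hpf and above it at 96 hpf. Its log2 change over both doses was -0.55 (SE 0.53), with an adjusted p of 0.952 (limma), and for 0.156 µM alone it was 0.025. Without the library of 0.078 µM at 96 hpf it was -0.16, and without that of 0.156 µM at 96 hpf -0.97. It was also the transcript with the widest spread between libraries at 96 hpf, 1.88 on the log2 scale.

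One other transcript was more than 2-fold apart at 96 hpf, that of rank 113. Its level was 16.3 FPKM in control offspring but 38.8 and 35.4 FPKM with parents in copper, so that both copper libraries were above control. At 24 hpf it had 0.324, 0.301 and 0.154 FPKM, with both copper libraries below control. At 24 hpf the widest spread was that of rank 130, with 5.19 FPKM in control offspring and 25.5 and 13.5 FPKM with parents at 0.078 and 0.156 µM. At 96 hpf its values were 332.1, 374 and 316.6 FPKM, so the groups lay close together after the rise. Rank 123 had 3.14, 1.17 and 7.70 FPKM at 24 hpf and 106.9, 129.8 and 127.8 FPKM at 96 hpf, again far apart at the lower level only. In the fit over both stages the copper change was 0.86 (SE 0.44) for rank 130 and 0.51 (SE 0.29) for rank 113. Either had an adjusted p of 0.951 (limma).

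In all, 9 of the 200 were at least 2-fold apart between some libraries of 24 hpf, or 4.50%. Of 33914 other transcripts with medians between 0.104 and 562.9 FPKM, the range of the 200, 5.40% were. At 96 hpf 2 of the 200 were, or 1%, against 1.82% of 6112 others with medians between 10.4 and 5538 FPKM. The others share the wide range of the 200 but are not matched on level, and 95 of the 200 cannot be 2-fold apart at 24 hpf. The median spread between the 3 libraries was 0.26 at 24 hpf and 0.20 at 96 hpf on the log2 scale, and 0.23 and 0.16 among the others. Among ranks 201 to 400 it was 0.17 and 0.16.

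The order of the 3 libraries within a stage was counted over all 200, the 95 below 1 FPKM at 24 hpf included, and set beside the transcripts with at least 1 FPKM, with no test. At 24 hpf 0.156 µM was the lowest library for 87 of the 200, or 43.5%, against 32.5% of all transcripts, and for 79 of the 200 transcripts at ranks 201 to 400. Control was the lowest for 56, or 28%, against 36.6%, and 0.078 µM for 57, or 28.5%, against 30.5%. The highest library of 24 hpf was control for 75, or 37.5%, against 31.1%, 0.078 µM for 74, or 37.0%, against 34.5%, and 0.156 µM for 51, or 25.5%, against 34.4%. At ranks 201 to 400 control was the lowest for 56 and 0.078 µM for 65. There the highest was control for 75, 0.078 µM for 70 and 0.156 µM for 55. The order at 24 hpf is therefore not read as particular to the 200.

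The pattern at 96 hpf was similar for the lowest library. It was 0.156 µM for 88, or 44.0%, against 32.2%, control for 57, or 28.5%, against 35.9%, and 0.078 µM for 55, or 27.5%, against 31.6%. The highest was control for 81, or 40.5%, against 33.1%, 0.156 µM for 65, or 32.5%, against 37%, and 0.078 µM for 54, or 27.0%, against 29.9%. Levels fell with parental dose across the 3 groups in 48 of the 200 at 24 hpf and 57 at 96 hpf, that is 24.0% and 28.5%, against 16.3% and 17.7%. They rose with dose in 21 and 34, that is 10.5% and 17.0%, against 18.4% and 20.6%. Each count describes 3 single libraries, and transcripts of 1 library are not independent.

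On the log2(FPKM + 1) scale, 2 of the 200 were at 24 hpf at least 2-fold below both other libraries in 0.156 µM, 1 in control and 0 in 0.078 µM, against 0.921%, 0.876% and 0.893% of all transcripts. The ratio of FPKM without an added 1, a measure chosen after the values were seen, does not compress transcripts below 1 FPKM. On it, 13 of the 200, or 6.50%, were at 24 hpf at least 2-fold lower in 0.156 µM than in both other libraries, against 2.1% of eligible transcripts. The same held for 4 of the 200 with control as the low library, against 2.42%, and for 4 with 0.078 µM, against 2.04%. These shares are not matched on level. In the 0.156 µM library of 24 hpf the eligible transcripts had a median of 2.78 FPKM and the 200 a median of 0.762 FPKM. Among ranks 201 to 400, 1 transcript was at least 2-fold lower in 0.156 µM than in both others. At 96 hpf 0 of the 200 were so low in 0.156 µM, against 1.96% of 32684 transcripts. Those had at least 0.1 FPKM in every library of 96 hpf. The rule ranks by the lowest library of 96 hpf and the highest of 24 hpf. In the ranking, a low library thus counts against a transcript at 96 hpf but not at 24 hpf. A library of 24 hpf below 0.1 FPKM removes a transcript before the ranking, which limits how low these libraries can be. The counts of the stages are therefore not compared.

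Of these 13, 8 were among the first 50 ranks and 11 among the first 100. Rank 10 had 1.63 FPKM in control and 1.39 FPKM at 0.078 µM but 0.291 FPKM at 0.156 µM at 24 hpf, and 214.4, 223.7 and 211.1 FPKM at 96 hpf. Rank 43 had 5.86, 4.85 and 1.18 FPKM at 24 hpf and 206.3, 251.1 and 260.4 FPKM at 96 hpf. Rank 17 had 4.01, 5.00 and 1.41 FPKM at 24 hpf and 311.2, 357.1 and 339.2 FPKM at 96 hpf. In each of these the library of 0.156 µM was low at 24 hpf and the 3 groups were within 1.5-fold of each other at 96 hpf. Rank 168, also of the 13, was not: it had 21.1, 23.4 and 33.2 FPKM at 96 hpf, with 0.156 µM 1.57 times control. The 13 were picked for their low library of 24 hpf, so closer levels at 96 hpf are not independent of that choice.

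Over the 13, the level at 0.156 µM was 0.179 to 0.371 times that of control at 24 hpf, with a median of 0.272. At 96 hpf it was 0.759 to 1.57 times that of control, with a median of 1.05, and above control in 8 of the 13. The values at 24 hpf lay between 0.130 and 1.41 FPKM in that library. The number of fragments behind them is unknown, so their counting error cannot be given. Ranks 49 and 51 had nearly the same 6 values, 1.26, 0.863 and 0.300 FPKM against 1.29, 0.783 and 0.292 FPKM at 24 hpf, and 70.7, 61.7 and 86.4 FPKM against 70.8, 58.1 and 86.6 FPKM at 96 hpf. Whether these are copies or transcripts of 1 gene is not given in the files.

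**Figure D5:**
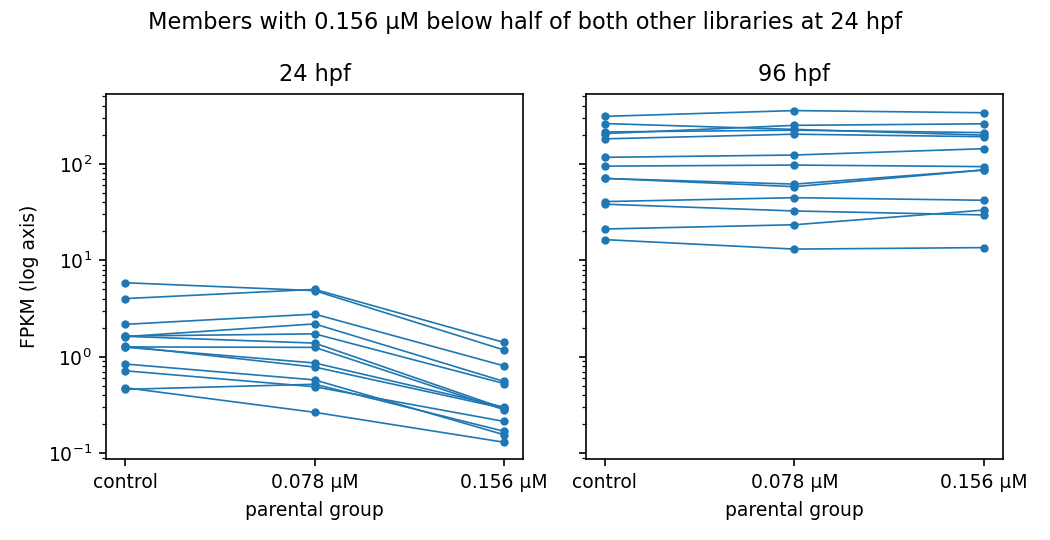
FPKM (log axis) of the 13 transcripts at least 2-fold lower in the 0.156 µM library than in both others at 24 hpf, by parental group, at 24 hpf (left) and 96 hpf (right), each line 1 transcript with 1 library per point. The low library was used to pick them; at 96 hpf its level was 0.759 to 1.57 times that of control.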

How the data were processed

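The authors deposited FPKM, 1 value per transcript and library, per the file headers. According to the submitters' processing notes, Trimmomatic, TopHat2 and Cufflinks 2.1.1 were used. Their settings, the genome build, the annotation release and how libraries were scaled to each other are not given in those notes or the files. The number of fragments, and so the depth and counting error, is unknown. Values were compared as log2(FPKM + 1), with a pseudocount of 1, among transcripts that reached 1 FPKM in 1 or more of the libraries compared, and counted as different at 2-fold. limma 3.58.1 in R 4.3.3 fitted copper with the stage as a block and a trended variance. Adjustment was by Benjamini-Hochberg over all transcripts, with calls at 0.05. The code was also run on simulated data with independent noise and large changes in transcripts of higher level. That run does not measure the power of the fit in these libraries. Other steps used Python 3.11.15 with pandas 2.3.3 and numpy 2.4.6. Transcripts were named by rule: ranks 1 and 2, and the 2 most negative copper changes in limma. The members, tests and rules were chosen with earlier results of these data known. Pathway lists could not be used, as transcripts are not paired with genes.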

Additional observations from a re-analysis of the deposited data

How the results depend on the processing

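The 200 held-out rises of at least 2-fold and the order of the libraries moved by less than 1.5 times under the alternatives run. At 4-fold the held-out counts were 199 and 200. The limma counts stayed at 0 for copper (0 also in each fit without 1 copper library) and for stage by copper (not refitted without a library). The median copper differences moved by less than 0.1, but that limit is wider than any of the main medians. For 0.156 µM against control, the median at 24 hpf went from -0.05 to -0.14 with a pseudocount of 0.1. At 96 hpf it went from -0.03 to -0.08 after rescaling. Of the 200, 164 and 148 were also chosen with pseudocounts of 0.1 and 5, 183 with medians of the libraries, 189 after quantile normalization, 188 after rescaling to 1000000, 176 to 185 with 1 parental group left out, 111 with a minimum of 0.5 FPKM and 100 with no minimum, an alternative chosen after seeing the data. Transcripts at least 2-fold apart at 24 hpf numbered 9, 25 and 19 (0.078 µM and 0.156 µM against control, and between doses) with a pseudocount of 0.1, 1, 0 and 1 with 5, 4, 13 and 11 after rescaling, and 9, 21 and 19 at 1.5-fold. At 96 hpf they numbered 5, 11 and 2 at 1.5-fold, and 0 for 0.156 µM against control with a pseudocount of 5. The shares of all transcripts past these limits were not computed at these settings. These counts are therefore not read as a trait of the 200. The ratio without a pseudocount, added after seeing the data, gave 4 transcripts low in control, 4 in 0.078 µM and 13 in 0.156 µM at 24 hpf, where log2(FPKM + 1) gave 1, 0 and 2. The share of FPKM at 96 hpf was 4.13%, 3.97% and 3.92% without the 10 most abundant identifiers. The copper change of ENSDART00000063125, -0.19, was 0.036 for 0.078 µM alone and ranged from -0.42 to 0.053 with 1 library left out, the highest without the control library of 96 hpf, and that of ENSDART00000167528 was 0.025 for 0.156 µM alone. Rescaling moved the median change of all transcripts between stages from 0.07 to 0.28 in control, and that of the 200 from 4.15 to 4.74. The summed FPKM of control was 562987 at 24 hpf and 476499 at 96 hpf, and rescaling sets both to 1000000. Why the sums differ, and the causes of the other shifts, were not tested. No paired analysis was possible because, for the copper comparisons, each group has 1 library and the labels give no replicate numbers; the stages pair by parental group, but the rule used that contrast, so these pairs are only described.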

Other observations

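The copper differences of the 200 transcripts at 24 hpf were set beside those at 96 hpf, which share no library. Across transcripts, which are not independent, Pearson's r was 0.21 for 0.078 µM against control and -0.08 for 0.156 µM against control, with Spearman's rho of 0.12 and -0.08. Over all 30156 transcripts r was 0.07 and -0.01. Of the 200, 105 and 98 had the same sign at both stages, or 52.5% and 49.0%, against 50.3% and 47.9% of all transcripts. At least 2-fold apart from control in the same direction at both stages were 0 of the 200 at either dose, against 0.448% and 0.478% of all transcripts, a share too low to be told from 0 among 200. Of the 200 chosen without a minimum at 24 hpf, 100 were below 0.1 FPKM in at least 1 library of 24 hpf, and 9 were listed at 0 in all 3.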
